A study of Rattus norvegicus with 8 samples.

Results

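The genes described here are 10 protein-coding genes of the rat mitochondrial chromosome, which were taken from a list of Ensembl IDs by the chromosome that encodes them. The rule uses no measured value, although this group of genes was chosen with earlier results of these data known. All 10 were present among the 23918 rows of the deposited table, and all 10 passed the filter that left 13686 genes for testing. They are Nd1 (ENSRNOG00000030644), Nd2 (ENSRNOG00000031033), Nd4 (ENSRNOG00000029707), Nd5 (ENSRNOG00000029971), Nd6 (ENSRNOG00000029042), Cytb (ENSRNOG00000031766), Co1 (ENSRNOG00000034234), Co2 (ENSRNOG00000030371), Co3 (ENSRNOG00000030700) and Atp6 (ENSRNOG00000031979). The table gives IDs alone, and the names are those that the list pairs with the IDs. No sequence or coordinate of these genes is given, because no file used here holds one. Nd3, Nd4l, Atp8 and the ribosomal and transfer RNAs of the same chromosome are not analysed here.

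RNA was sequenced from 8 subcutaneous tumours that ELT3-V3 cells, a single rat uterine leiomyoma line lacking tuberin, formed in female NOD-scid mice aged 6 weeks, which lack functional T and B cells. Treatment was randomised once tumours measured 150 to 200 mm3, and each of the 4 groups held 2 tumours. The control group received vehicle (carboxymethylcellulose with Tween-80) and another group rapamycin alone (0.25 mg/kg per day). The remaining groups received rapamycin together with clorgyline (10 mg/kg per day) or together with rasagiline (1 mg/kg per day). Rapamycin was therefore common to the 3 treated groups, although its dose is not repeated for the combinations, and the labels do not state whether each tumour came from its own mouse. Rapamycin inhibits mTORC1, a kinase complex that promotes growth and mitochondrial activity. Clorgyline and rasagiline inhibit monoamine oxidase, an enzyme of the outer mitochondrial membrane, with selectivity for the A and B forms respectively.

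The mitochondrial chromosome encodes a few hydrophobic core subunits of the respiratory chain, and all other subunits come from nuclear genes. Both of its strands are transcribed as long precursors that are cut into shorter RNAs, so that neighbouring genes share a transcript. Of the genes described here only Nd6 lies on the light-strand transcript. Nd1, Nd2, Nd4, Nd5 and Nd6 encode subunits of complex I, which oxidises NADH and pumps protons. Cytb encodes cytochrome b of complex III, Co1, Co2 and Co3 the catalytic core of complex IV (cytochrome c oxidase), and Atp6 the proton-channel subunit of ATP synthase.

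Values are TPM, in which reads are divided by gene length and scaled so that each library sums to 1000000. Levels are therefore per length and relative to all other RNA in the library. Whether poly(A) selection was used is not given, so genes may have been captured unequally. Comparisons of level between genes, Nd6 included, carry that limit, which was not tested. Sequencing depth was unknown. In these bulk tumours, fewer tumour cells and less mitochondrial RNA per cell cannot be told apart. Mouse reads that align to the rat sequence, nuclear copies of mitochondrial DNA and reads from the opposite strand could all enter these values, and their part was not tested. Nd6 may be the gene most exposed to the last of these, since the transcript opposite it is the one that carries the other genes described here. The strand setting is not given in the sources used here. Rapamycin was the group whose tumours were least alike: across all tested genes its replicates had an r of 0.947, against 0.972 to 0.982 in the other groups. Markers of the tumour and of host cell types could not be read, because 0 of the 23918 IDs were matched to a symbol.

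The mitochondrially encoded genes were among the most abundant messengers of every tumour. Together they held 7.76% and 7.66% of all TPM in the controls and 7.24% and 7.90% in the rapamycin tumours. They held 8.94% and 7.23% with clorgyline, and 5.63% and 6.12% with rasagiline. The controls averaged 7.71% ± 0.0722, the rapamycin tumours 7.57% ± 0.467, the clorgyline combination 8.08% ± 1.21 and the rasagiline combination 5.88% ± 0.349 (SD, n = 2 each). Both rasagiline combination tumours therefore lay below the other 6, and the clorgyline combination held both the highest tumour and one close to the lowest rapamycin tumour. These sums describe the libraries and were not tested.

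**Figure D1:**
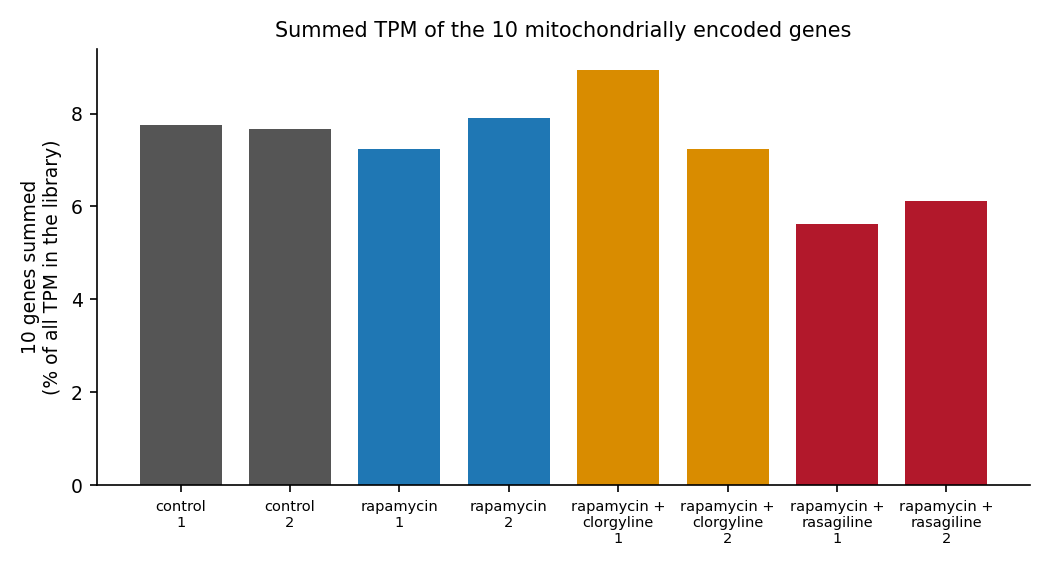
Summed TPM of the 10 mitochondrially encoded genes as a percentage of all TPM, with 1 bar per tumour coloured by group and labelled with its replicate number. The rasagiline combination tumours stand at 5.63% and 6.12%, and the other 6 between 7.23% and 8.94%.

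Co1, the subunit that holds the oxygen-reducing site, was the most abundant of the 10 genes, with a mean of 16508 ± 2166 TPM (SD over the 8 tumours), and ranked 1 or 2 among all genes in every library. Atp6 followed at 13217 ± 2219 TPM, Co3 at 12401 ± 2229 TPM and Co2 at 12346 ± 1625 TPM. Co1 exceeded Atp6 in 8 of 8 tumours, whereas Atp6 exceeded Co3 in 6 of 8 and Co3 exceeded Co2 in 4 of 8, so the order among those 3 was not the same in all tumours. The next tier was formed by Nd2 at 4715 ± 856 TPM, Cytb at 4616 ± 728 TPM and Nd1 at 4305 ± 841 TPM, and each neighbour in this order was the higher in only 4 of 8 tumours. Nd4 stood below Nd1 in all 8, at 3036 ± 561 TPM. Nd6 (976 ± 254 TPM) and Nd5 (975 ± 195 TPM) were lowest, with Nd6 the higher in 4 of 8 tumours and a rank no lower than 210 among all rows. Each complex IV messenger thus stood above each complex I messenger per length in all 8 tumours.

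Nd1, a membrane subunit of complex I near the quinone site, stood at 5108 and 4205 TPM in controls and at 4972 and 3616 TPM after rapamycin. It stood at 5694 and 3712 TPM with clorgyline and at 3553 and 3581 TPM with rasagiline. The values of control, rapamycin and clorgyline combination tumours overlapped, and each of these groups held a high and a low tumour.

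Nd2, which encodes another membrane subunit of complex I, stood at 5005 and 5205 TPM in controls, 4690 and 5119 TPM after rapamycin, 6135 and 4323 TPM with clorgyline, and 3418 and 3825 TPM with rasagiline. Nd4, a proton-pumping subunit, stood at 3478 and 2686 TPM in controls, 2950 and 3123 TPM after rapamycin, 4108 and 3065 TPM with clorgyline, and 2399 and 2477 TPM with rasagiline. For both genes the rasagiline combination tumours were the lowest pair and clorgyline combination replicate 1 was the highest tumour.

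Nd5, the distal proton-pumping subunit of complex I, stood at 1209 and 813 TPM in controls, 1044 and 838 TPM after rapamycin, 1275 and 1039.9 TPM with clorgyline, and 787 and 793 TPM with rasagiline. Nd6, its neighbour on the other strand, stood at 1159 and 806 TPM in controls, 1204 and 845 TPM after rapamycin, 1432 and 775 TPM with clorgyline, and 844 and 742 TPM with rasagiline. For Nd5 the lower control lay close to both rasagiline combination tumours. For Nd6 the rasagiline combination overlapped the control and clorgyline combination groups.

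Cytb, whose product carries electrons through complex III, stood at 5058 and 4499 TPM in controls and 4723 and 5070.2 TPM after rapamycin. It stood at 5622 and 4826 TPM with clorgyline and at 3482 and 3646 TPM with rasagiline. The tumours of a group lay closest together for this gene, with a residual SD of 0.107 on the log2 scale, against a median of 0.248 over all tested genes and 0.411 for Nd6, the most variable of the 10.

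Co1 stood at 15425 and 18268 TPM in controls, 16164 and 19598 TPM after rapamycin, 18171 and 16968 TPM with clorgyline, and 13204 and 14268 TPM with rasagiline. Co2, which receives electrons from cytochrome c, stood at 13393 and 13800.3 TPM in controls, 11837 and 13156 TPM after rapamycin, 14143 and 12303 TPM with clorgyline, and 9460.1 and 10673 TPM with rasagiline. Co3, the third core subunit, stood at 13640 and 13059 TPM in controls, 10777 and 14682 TPM after rapamycin, 15360.2 and 12252 TPM with clorgyline, and 8762 and 10681 TPM with rasagiline. All 3 had their lowest pair in the rasagiline combination, although for Co3 the lower rapamycin tumour was close to it.

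Atp6 stood at 14157 and 13271 TPM in controls, 14017 and 12937 TPM after rapamycin, 17419 and 13005 TPM with clorgyline, and 10388 and 10543 TPM with rasagiline. As for 8 of the other genes, the highest value came from clorgyline combination replicate 1 and the lowest from the rasagiline combination.

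**Figure D2:**
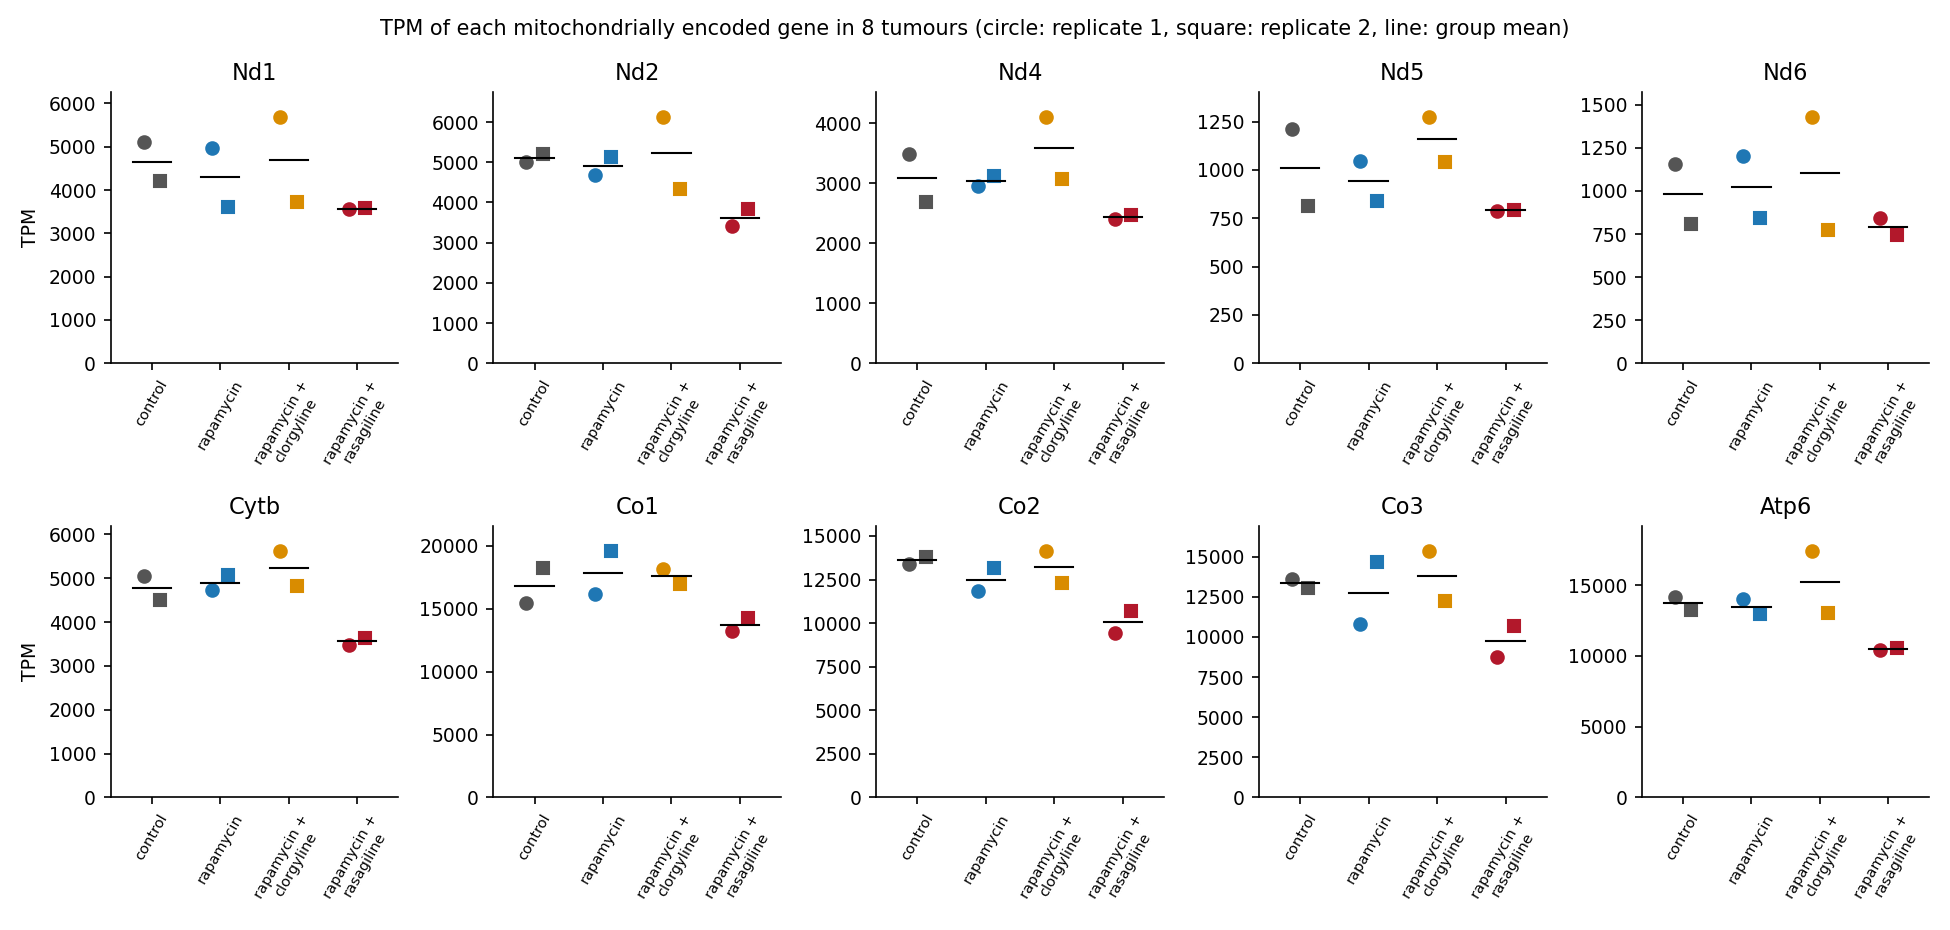
TPM of each of the 10 genes, with 1 panel per gene, a circle for replicate 1 and a square for replicate 2 of each group, and a line at the group mean. Both rasagiline combination tumours lie below the other 6 for 9 of the 10 genes, and Nd6 is the exception.

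The comparison of rapamycin with control asks whether rapamycin alone changed these messengers. None of the 10 genes passed the test (limma on log2(TPM + 1), two-sided, Benjamini-Hochberg adjusted p below 0.05), against 0.643% of all genes tested, and 0 had an unadjusted p below 0.05, against 18.7% of all genes. The log2 differences ran from -0.13 for Nd1 to 0.08 for Co1, with a median of -0.04 beside 0.09 for all genes. The 95% intervals of the 10 genes lay between -0.73 and 0.83, so each excluded a log2 difference of 1 in either direction, which held for 55.4% of all genes. Only Co2 had groups that did not overlap, at the lower side, where 17.6% of all genes were found. Without rapamycin replicate 2 the median was -0.03, without control replicate 1 it was 0.02 and without control replicate 2 it was -0.11.

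All 3 groups given rapamycin were also averaged and compared with control. The test called 0 of the 10 genes, against 2.44% of all genes, and 0 had an unadjusted p below 0.05, against 21.9% of all genes. The log2 differences ran from -0.20 for Co2 to -0.03 for Nd6, with a median of -0.09 beside 0.10 for all genes, and the limma adjusted p of the 10 genes ranged from 0.458 to 0.955. All 10 intervals lay between -0.67 and 0.60 (log2). The 10 differences were below 0 as deposited, as were 39.0% of those of all genes. After quantile normalization, which sets the values of the most abundant genes by their rank, only 6 were. That direction was not common to the 3 groups. Against control, 7 of the 10 differences were below 0 for rapamycin alone, 2 with clorgyline and 10 with rasagiline, with medians of -0.04, 0.09 and -0.38. Leaving out single tumours gave medians of the averaged comparison from -0.19 to -0.04.

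Rapamycin with clorgyline against control asks how that combination differed from vehicle. Again 0 of the 10 genes were called by limma, against 0.0146% of all genes, and 0 had an unadjusted p below 0.05, against 13.5% of all genes. The log2 differences ran from -0.04 for Co2 to 0.22 for Nd5, with a median of 0.09 beside 0.07 for all genes, and all 10 intervals lay between -0.65 and 0.89. This group rested on unlike tumours: all 10 genes were higher in replicate 1 than in replicate 2, by up to 1.85-fold for Nd6. Without replicate 1 the median log2 difference was -0.10, and without replicate 2 it was 0.28.

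Rapamycin with rasagiline against control showed the lowest values of the series, but 0 of the 10 genes passed the limma test, against 1.57% of all genes. Cytb, Nd2 and Co2 were the 3 genes with an unadjusted p below 0.05, a level that 5.69% of all genes reached on the lower side. That count was 0 without control replicate 1, without either rasagiline combination tumour or with no filter, 1 without control replicate 2, and 5 with array weights. Cytb averaged 3564 ± 116 TPM against 4778 ± 395 TPM in controls (SD, n = 2 each), which is 0.747 of control (log2 difference -0.42, SE 0.167, 95% interval -0.81 to -0.03; limma adjusted p = 0.228). Nd2 averaged 3621 ± 288 against 5105 ± 141 TPM (SD, n = 2 each), the largest difference of the 10 at 0.708 of control (log2 difference -0.50, 95% interval -0.98 to -0.02; limma adjusted p = 0.242). Co2 averaged 10067 ± 858 against 13597 ± 288 TPM (SD, n = 2 each), or 0.739 of control (log2 difference -0.44, 95% interval -0.86 to -0.01; limma adjusted p = 0.246).

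For the other 7 genes the rasagiline combination stood between 0.725 of control for Co3 and 0.819 for Nd6, with limma adjusted p from 0.319 to 0.664. Without control replicate 1 the log2 differences of Nd4, Nd5 and Nd6 were -0.14, -0.04 and -0.03, against -0.33, -0.33 and -0.29 with both controls. The difference for Nd1 was -0.24 without that control, against -0.38, and the one for Co1 was -0.17 without control replicate 2, against -0.29. As deposited, all 10 differences were below 0, as were 35.6% of those of all genes, and after quantile normalization 6 were below 0. The median of the 10 genes was -0.38 (log2) beside 0.15 for all genes, and after median rescaling, which brings the median of all genes close to 0, it was -0.55. The groups did not overlap in 9 of the 10 genes on the lower side, against 18.3% of all genes. The intervals of 8 of the 10 genes lay within 1 log2 unit of 0, against 55.4% of all genes. Those of Nd6 (-1.06 to 0.48) and Co3 (-1.003 to 0.07) did not exclude a halving. The 10 genes share transcripts, libraries and controls, and are not 10 independent observations of a difference.

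**Figure D3:**
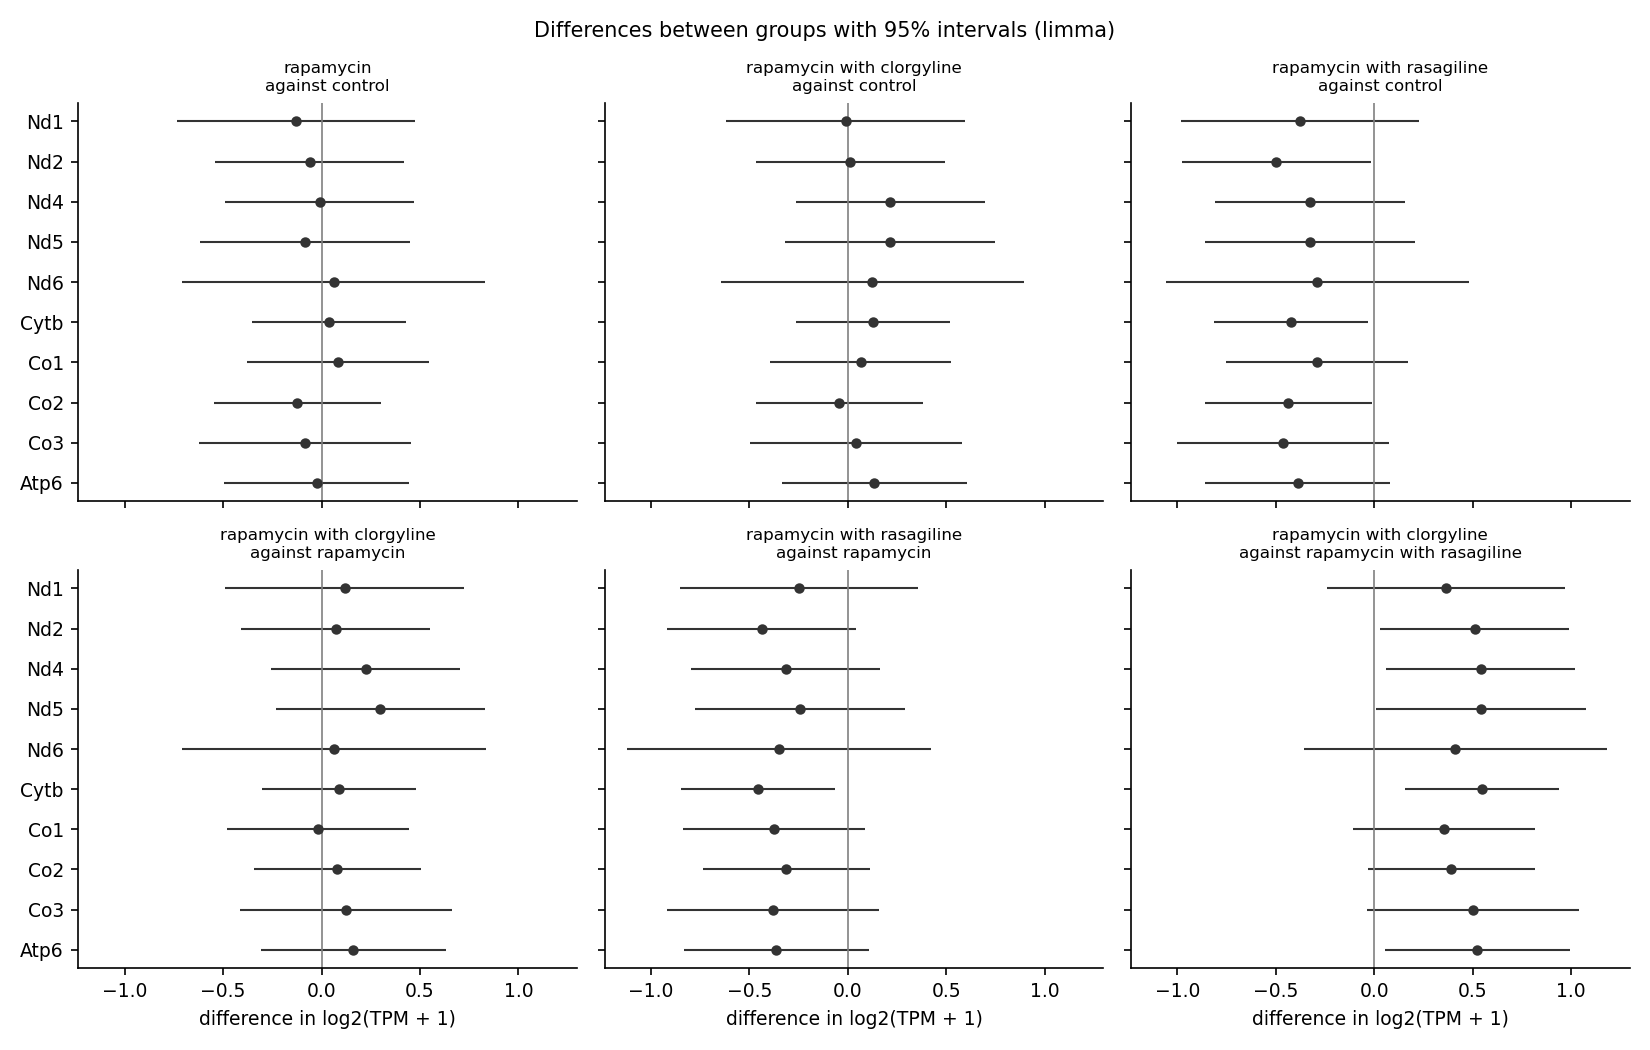
Differences in log2(TPM + 1) between groups for each of the 10 genes in 6 comparisons, as points with 95% intervals from limma and a line at 0. With rasagiline against control the points lie between -0.50 and -0.29, and no gene in any panel has an adjusted p below 0.05.

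Each combination was compared with rapamycin alone. The rapamycin dose is not repeated for the combinations, so the second drug and any difference in that dose cannot be told apart. With clorgyline, limma called 0 of the 10 genes and 0% of all genes, and 0 had an unadjusted p below 0.05, against 7.61% of all genes. The log2 differences ran from -0.02 for Co1 to 0.30 for Nd5, with a median of 0.10 beside -0.02 for all genes. All 10 intervals lay within 1 log2 unit of 0, against 64.0% of those of all genes. The median was -0.04 without clorgyline combination replicate 1 and 0.35 without replicate 2.

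With rasagiline, limma again called 0 of the 10 genes, against 0.0146% of all genes, and only Cytb had an unadjusted p below 0.05, on the lower side, against 1.04% of all genes. Cytb averaged 3564 ± 116 against 4897 ± 245 TPM after rapamycin alone (SD, n = 2 each), or 0.728 of it (log2 difference -0.46, 95% interval -0.85 to -0.07; limma adjusted p = 0.755). The other 9 genes stood between 0.738 (Nd2) and 0.845 (Nd5) of their level after rapamycin alone. The values did not overlap in any of the 10 genes, the rasagiline combination being on the lower side, where 12.1% of all genes were found. For some genes the higher rasagiline combination tumour nearly met the lower rapamycin tumour. These were Nd6 (844 against 845 TPM), Nd1 (3581 against 3616 TPM) and Co3 (10681 against 10777 TPM), and the margin was wider for the other genes. As deposited all 10 differences were below 0, as were 42.5% of those of all genes, and after quantile normalization 7 were. The median was -0.36 (log2) beside 0.05 for all genes. Leaving out single tumours gave medians from -0.39 to -0.31, and quantile normalization gave -0.26. With no filter, after median rescaling or with only the compared groups fitted, 0 of the 10 genes had an unadjusted limma p below 0.05. With a filter of 5 TPM in 2 libraries, 3 had.

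A direct comparison of the combinations set clorgyline beside rasagiline, which differ in target form and were given at 10 and 1 mg/kg per day, so that doses were not matched. The limma test called 0 of the 10 genes, against 0.0219% of all genes. An unadjusted p below 0.05 was found for 5 genes, all higher with clorgyline, as for 1.40% of all genes. They were Cytb, at 5224 ± 563 against 3564 ± 116 TPM (SD, n = 2 each; log2 difference 0.55, 95% interval 0.16 to 0.94; limma adjusted p = 0.881), and Nd2, Nd4, Nd5 and Atp6, whose log2 differences were 0.51, 0.54, 0.54 and 0.52 (limma adjusted p = 0.997 for each). Co1 stood at 17570 ± 851 against 13736 ± 752 TPM (SD, n = 2 each), with a log2 difference of 0.36 and a 95% interval from -0.11 to 0.82.

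Between the combinations the median of the 10 genes was 0.51 (log2) beside -0.09 for all genes, and 9 of the 10 genes, with Nd6 the exception, had values that did not overlap and were higher with clorgyline, against 9.76% of all genes. The intervals of 6 of the 10 genes lay within 1 log2 unit of 0, as did those of 67.7% of all genes. Larger differences were not excluded for Nd4, Nd5, Nd6 and Co3. Without clorgyline combination replicate 1 the median was 0.31, with 0 genes at an unadjusted p below 0.05 and Nd6 at -0.03, and that count was also 0 without rasagiline combination replicate 1 or with no filter. The difference for Co2 was -0.13 and that for Co1 was 0 after quantile normalization. Both rasagiline combination tumours were the lowest of all 8 for 9 of the 10 genes, which held for 1.26% of all genes tested. That arrangement was looked for after the values had been seen.

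The make-up of the mitochondrial messenger pool was then described apart from its amount, as the share of each gene in the summed TPM of the 10. Complex IV genes held a mean of 56.5% of the pool over the 8 tumours, complex I genes 19.1%, Atp6 18.1% and Cytb 6.31%. Group means of the complex I share lay between 18.8% after rapamycin and 19.4% with clorgyline, and those of the complex IV share between 55.4% with clorgyline and 57.0% with rasagiline. In controls these shares were 19.2% ± 1.88 and 56.8% ± 2.98, and with rasagiline 19.1% ± 0.633 and 57.0% ± 1.67 (SD, n = 2 each). For each complex the shares of both rasagiline combination tumours, whose sums were the lowest, lay inside the range of the other 6 tumours.

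**Figure D4:**
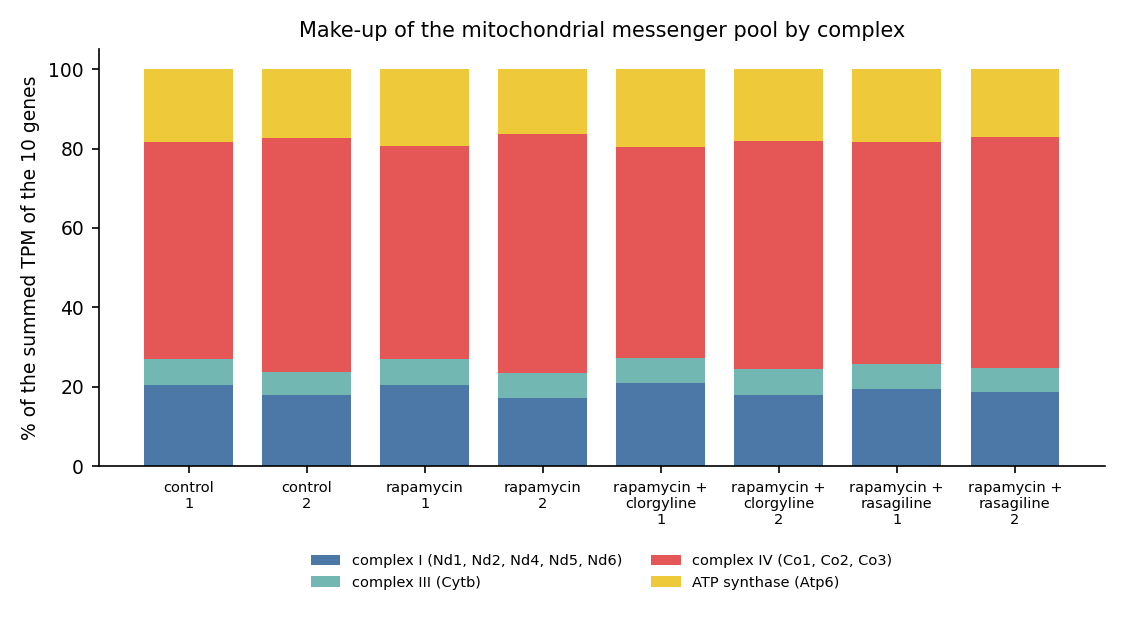
Make-up of the summed TPM of the 10 genes in each tumour, as stacked percentages by respiratory complex, with tumours labelled by group and replicate number. Complex IV holds between 53.4% and 60.1% and complex I between 17.1% and 20.9% in every tumour.

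The make-up differed between the 2 tumours of each group. In each of the 4 groups 1 tumour had a complex I share between 19.5% and 20.9% and the other had one between 17.1% and 18.6%. In all 4 groups the tumour with more was the one numbered 1, although the numbers were given here in the order of the sample list and the labels attach no meaning to that order. The tumour with the larger complex I share had the smaller complex IV share, at 53.4% to 55.8% against 57.5% to 60.1%. Shares of the same pool trade off by construction, and complex IV and complex I hold most of it. In TPM, clorgyline combination replicate 1 was higher than replicate 2 for all 10 genes, those of complex IV included. For 9 of the 10 genes the range of the group mean shares was smaller than the largest gap between replicates, with Co2 the exception at 1.207 against 1.197 percentage points. Means of 2 tumours spread less than single tumours, and the largest of 4 gaps was taken, so this measure favours the gap. It cannot show that groups differed less than replicates.

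In percentage points the largest gaps between replicates were those of Co1 (up to 3.98), Co3 (3.70), Atp6 (2.99) and Nd1 (2.29), while Nd6 (0.593) was among the smallest. Nd1 made up 6.58% and 5.49% of the pool in controls, 6.87% and 4.58% after rapamycin, 6.37% and 5.14% with clorgyline, and 6.31% and 5.85% with rasagiline. Nd6 made up 1.49% and 1.05% in controls, 1.66% and 1.07% after rapamycin, 1.60% and 1.07% with clorgyline, and 1.499% and 1.21% with rasagiline. The same tumour of each group was high for both genes, although Nd6 is a small part of the pool. Co1 made up 19.9% and 23.8% in controls, 22.3% and 24.8% after rapamycin, 20.3% and 23.5% with clorgyline, and 23.5% and 23.3% with rasagiline, so that it was low where Nd1 and Nd6 were high in 3 of the 4 groups. The ratio of Co1 to Nd1 TPM ran from 3.02 in control replicate 1 to 5.42 in rapamycin replicate 2. Co3 made up 17.6% and 17.0% in controls, 14.9% and 18.6% after rapamycin, 17.2% and 17.0% with clorgyline, and 15.6% and 17.4% with rasagiline, and its high tumour was not the same one in every group.

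**Figure D5:**
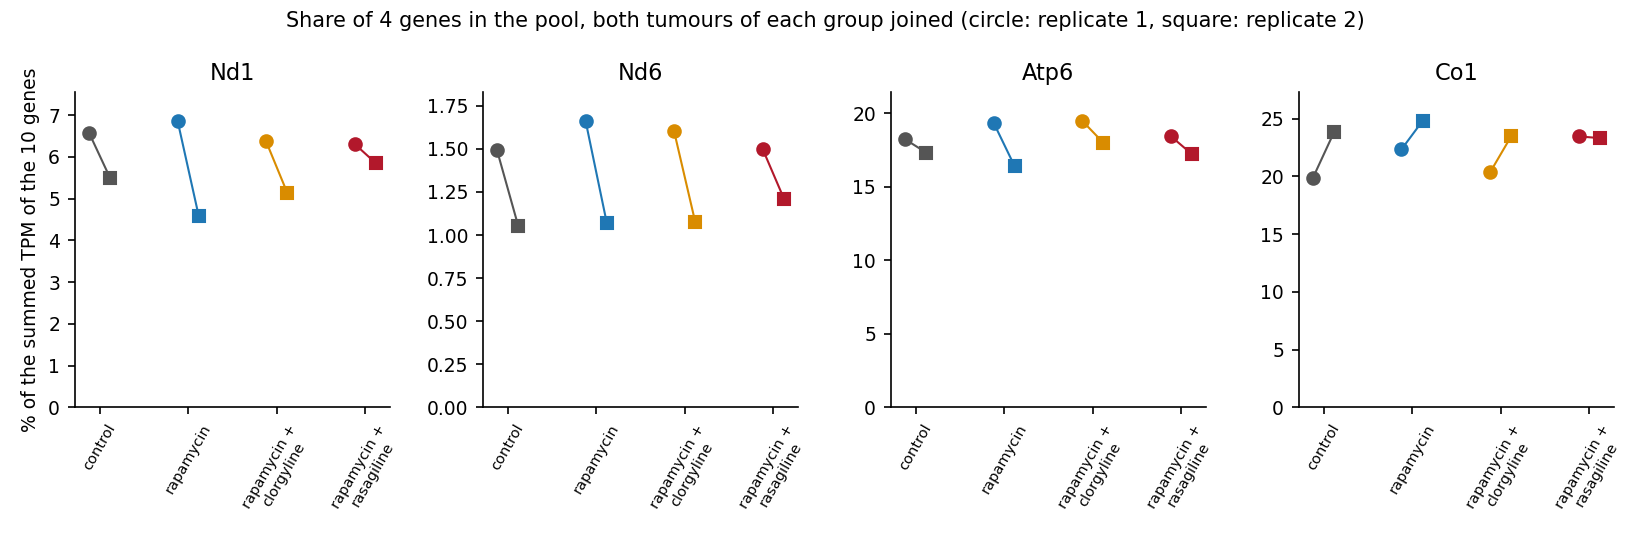
Share of Nd1, Nd6, Atp6 and Co1 in the summed TPM of the 10 genes, in percent, with both tumours of each group joined by a line (circle for replicate 1, square for replicate 2). For Nd1 and Nd6 the tumours of every group lie apart, as at 6.87% and 4.58% for Nd1 after rapamycin, while the Co1 shares with rasagiline, at 23.5% and 23.3%, nearly coincide.

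Nd1 and Nd2 are neighbours on the same precursor, and their TPM ratio ran from 0.706 in rapamycin replicate 2 to 1.06 in rapamycin replicate 1, a range found within a single group. The ratio of Nd6 to Nd5, which lie side by side on opposite strands, ran from 0.746 in clorgyline combination replicate 2 to 1.15 in rapamycin replicate 1. The ratio of Co3 to Co2 was steadier, between 0.910 and 1.12. No ratio was tested.

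Among the 8363 genes outside the list with a mean of at least 10 TPM, 2 were named for following the log2 of the summed TPM of the 10 genes most closely over the 8 tumours. ENSRNOG00000018939 had a Pearson r of 0.884 (Spearman rho 0.619) and lay between 114 and 160.4 TPM, with its lowest values, 114 and 126 TPM, in the rasagiline combination. Its r was 0.411 without the 2 tumours farthest from the median on the log2 scale of the sum, both of the rasagiline combination, so on this measure the likeness rested on those tumours. ENSRNOG00000020601 had an r of 0.848 (rho 0.905), which was 0.728 without the same tumours, and lay between 53.9 and 74.0 TPM. These values describe the genes chosen as most alike, share the scaling of each library and carry no p-value.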

How the data were processed

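RNA was extracted with TRIzol and libraries were made with Illumina TruSeq protocols, per the labels' protocols; whether poly(A) selection was used is not given in the sources used here. The authors deposited 1 table of TPM values for 8 tumours. Build rn6 and the tools DESeq2, bedtools, STAR (2.4.0f1) and SAMtools (0.1.18) are listed, without their roles, per the submitters' processing notes. TPM keeps no sequencing depth, so no counting interval was computed. Groups came from the sample titles.

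Genes with at least 1 TPM in at least 2 libraries were tested (13686 of 23918). limma 3.58.1 in R 4.3.3 fitted 4 group means to log2(TPM + 1) of all 8 libraries (4 residual degrees of freedom), with variances moderated along an intensity trend. The 7 comparisons were adjusted by Benjamini-Hochberg over all genes tested. The fit was also run on simulated data with independent noise, read only for the mean of the 3 groups given rapamycin against control. The outcome of that run is not used here. All p-values rest on the spread between tumours that may share a mouse. Titles open with a letter and a number (E recurs in 3 groups) whose meaning is not given, so tumours were not paired.

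The 10 genes, all named in the text, and the gene lists were chosen with earlier results of these data known. The 2 other genes named were those with the highest Pearson r with the summed TPM of the 10. Lists of nuclear-encoded respiratory chain subunits, mitochondrial RNA factors and cell type markers were not used here, since the reference table (47357 genes, GRCr8) carried 0 Ensembl IDs. Alternatives were 2 other pseudocounts, 2 other filters, 3 other scalings, no variance trend, fewer groups in the fit, array weights and leaving out each library. Plots were drawn with matplotlib 3.10.9.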

Additional observations from a re-analysis of the deposited data

How the results depend on the processing

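No alternative made any of the 10 genes pass the test: in 125 combinations of a comparison with an alternative, 0 genes were called, and the lowest limma adjusted p was 0.0919 (rasagiline combination against control, array weights, which were chosen after seeing the data). The median log2 difference of the 10 genes moved by less than the pooled replicate SD of 0.140 in 117 of 125. After quantile normalization it was 0.332 between the combinations, and after median rescaling it was -0.548 for the rasagiline combination against control. Quantile normalization also gave differences of 0.254 for Co1, 0.129 for Co2, 0.128 for Co3 and 0 for Atp6 in the latter comparison, and of 0 for Co1 and -0.129 for Co2 between the combinations, none with an adjusted p below 0.05. It gives every library the same set of values, so the most abundant genes take values fixed by rank.

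Leaving out single tumours gave medians from -0.0996 to 0.281 for the clorgyline combination against control, from -0.0441 to 0.348 against rapamycin and from 0.310 to 0.682 against the rasagiline combination, each range set by the clorgyline combination tumours, and the Nd6 difference in the last comparison ran from -0.029 without clorgyline combination replicate 1 to 0.855 without replicate 2. For the rasagiline combination against control the medians ran from -0.501 to -0.340, and for rapamycin against control from -0.109 to 0.0165. Calls over all genes varied far more: 88 for rapamycin against control became 0 to 1313, 215 for rasagiline 0 to 1409, 334 for the mean 0 to 1306, 2 for clorgyline 0 to 127, 0 and 2 for the combinations against rapamycin 0 to 433 and 0 to 408, and 3 between the combinations 0 to 6.

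With the 100 most abundant other genes removed from the sum, the 10 genes held 10.55% and 10.63% of the TPM in controls, 9.78% and 10.9% after rapamycin, 12.6% and 9.77% with clorgyline and 7.87% and 8.49% with rasagiline. With Co1 left out of the pool, the mean shares were 7.62% for Nd1, 8.31% for Nd2, 5.36% for Nd4, 1.724% for Nd5, 1.720% for Nd6, 8.16% for Cytb, 21.90% for Co2, 21.88% for Co3 and 23.3% for Atp6, larger by construction. No paired analysis was possible because no 2 groups share more than 1 letter or 1 number of the codes that open the titles, and the labels do not say what the codes mean. The fit of only the groups compared was not run for the mean of the 3 groups, which uses every group. A left-out tumour's partner was taken to have the spread of the other groups. Depth is unknown, and the intervals of 2 tumours a group limit what could be seen.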

Other observations

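Over the 8 tumours, the log2 TPM of the 10 genes correlated pairwise with a median r of 0.808 over 45 pairs, from 0.179 for Nd6 with Co1 to 0.954 for Nd2 with Co2. Nd6, the only light-strand gene of the 10, had r from 0.179 with Co1 to 0.942 with Nd1. Within its own strand Nd1 had r from 0.252 with Co1 to 0.864 with Atp6, so the ranges overlapped. The strand setting is not given, and the part of opposite-strand reads in Nd6 was not tested. Whether messengers of both strands vary together was therefore not tested either. These correlations describe 8 libraries that share their scaling, and no p is given.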
